A study of Mus musculus with 21 samples.

Results

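The genes described here are 10 chemokine ligands of the mouse CXC and CX3C families, chosen by name from a gene table of 45706 genes. Cxcl1, Cxcl2 and Cxcl5 are neutrophil chemokines, Cxcl9, Cxcl10 and Cxcl11 are interferon-driven chemokines, and Cxcl12, Cxcl14, Cxcl16 and Cx3cl1 were treated as homeostatic chemokines. All 10 were in the table, and 9 of them were among the 15230 genes with enough counts to test. Cxcl2 was the member that did not pass the filter on low counts.

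The RNA came from cultured mouse mammary fibroblasts: line CAF1, from carcinomas of MMTV-PyMT mice (CAF), and line NF1, from normal glands of FVB/n mice (NF). In MMTV-PyMT mice a mammary tumour virus promoter drives a viral oncogene in the mammary epithelium. The lines were transfected with 100 nM of a control siRNA (siCtr) or of an siRNA pool against either HSP90 gene. Hsp90aa1 encodes the stress-inducible cytosolic HSP90 chaperone, and Hsp90ab1 its constitutive counterpart. The 7 groups of 3 libraries were CAF with siHsp90aa1, CAF with siHsp90ab1 and CAF with siCtr, all with vehicle, then NF with siHsp90aa1 and TGFb1, NF with siHsp90ab1 and TGFb1, NF with siCtr and TGFb1, and NF with siCtr and vehicle. TGFb1, at 5 ng/mL, was present for 43 h, and RNA was taken 48 h after transfection from cells grown in medium with 10% serum. All 21 libraries came from transfected cells. Each origin was represented by 1 numbered line, so tumour origin and line cannot be told apart. Each HSP90 gene was targeted with 1 pool, so loss of the target and any other effect of that pool cannot be told apart. Among these libraries no NF knockdown had vehicle, so any contrast of a knockdown between CAF and NF also contrasts vehicle with TGFb1.

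Chemokines are small proteins that cells secrete or shed and that steer leukocytes along concentration gradients through G protein-coupled receptors. Cxcl1, Cxcl2 and Cxcl5 act through Cxcr2 on neutrophils and are typical targets of NF-kB, the transcription factor downstream of interleukin-1, TNF and Toll-like receptors. Cxcl9, Cxcl10 and Cxcl11 act through Cxcr3 on activated T cells and natural killer cells and are induced by interferons through STAT and IRF factors. Cxcl12 is the fibroblast chemokine that retains Cxcr4-bearing cells, and Ackr3 scavenges it. Cxcl16 and Cx3cl1 are made as membrane-anchored proteins that Adam10 and Adam17 release, and they bind Cxcr6 and Cx3cr1.

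The neutrophil and interferon-driven genes lie in a pair of clusters on chromosome 5 of the GRCm38 build. The neutrophil cluster spans chr5:90759360-90905938, with Cxcl5 (ENSMUSG00000029371, chr5:90759360-90761624), Cxcl1 (ENSMUSG00000029380, chr5:90891241-90893115) and Cxcl2 (ENSMUSG00000058427, chr5:90903871-90905938) on the plus strand. The interferon-driven cluster spans chr5:92321347-92365485, with Cxcl9 (ENSMUSG00000029417, chr5:92321347-92328079), Cxcl10 (ENSMUSG00000034855, chr5:92346638-92348889) and Cxcl11 (ENSMUSG00000060183, chr5:92359544-92365485) on the minus strand. Cxcl10 and Cxcl11 overlap Art3 on the opposite strand, and Cxcl11 is annotated in GENCODE as a polymorphic pseudogene. Cxcl12 lies at chr6:117168535-117181367, Cxcl14 at chr13:56288643-56296551, Cxcl16 at chr11:70453983-70459984 and Cx3cl1 at chr8:94772009-94782427. Cxcl16 overlaps Zmynd15 on the opposite strand. Of the 31-base words in the annotated transcripts of Cxcl2, 7.59% also occur in Cxcl3, a neighbouring paralog, whereas Cxcl1 and Cxcl10 share none with another gene. Cxcl11 shares 2.32% of its words, with 1497 other genes in all, and Cxcl9 0.574%, with 139.

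RefSeq promoter windows of 300 bases, 250 before to 50 after the annotated start on GRCm38.p6, were at hand for 7 of the 10 genes. Those of Cxcl1 and Cxcl2 are printed because these neighbours carry the same motif and differ widely in level. Those of Cxcl9, Cxcl10 and Cx3cl1 are printed because their transcripts moved together or apart under TGFb1 and the knockdowns. Capitals mark matches to the kappaB consensus or to the ISRE core (GAAA, any 2 bases, GAAA) on either strand, and overlapping matches are merged. Cxcl1 is at chr5:90890995-90891294 and Cxcl2 at chr5:90903649-90903948, both on the plus strand. Cxcl9 is at chr5:92328030-92328329 and Cxcl10 at chr5:92348840-92349139, both on the minus strand, and Cx3cl1 is at chr8:94771930-94772229 on the plus strand.
Cxcl1: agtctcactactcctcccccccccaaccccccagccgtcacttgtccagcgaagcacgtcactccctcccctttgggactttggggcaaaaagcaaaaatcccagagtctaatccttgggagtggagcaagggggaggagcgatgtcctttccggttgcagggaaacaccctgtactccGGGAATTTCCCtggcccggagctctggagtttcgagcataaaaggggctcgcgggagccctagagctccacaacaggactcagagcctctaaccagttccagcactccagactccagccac
Cxcl2: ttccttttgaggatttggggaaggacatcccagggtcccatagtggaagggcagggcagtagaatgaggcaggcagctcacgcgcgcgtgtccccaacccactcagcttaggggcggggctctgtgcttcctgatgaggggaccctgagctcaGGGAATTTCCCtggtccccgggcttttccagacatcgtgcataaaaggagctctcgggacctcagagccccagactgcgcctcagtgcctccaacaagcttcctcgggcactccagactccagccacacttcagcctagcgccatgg
Cxcl9: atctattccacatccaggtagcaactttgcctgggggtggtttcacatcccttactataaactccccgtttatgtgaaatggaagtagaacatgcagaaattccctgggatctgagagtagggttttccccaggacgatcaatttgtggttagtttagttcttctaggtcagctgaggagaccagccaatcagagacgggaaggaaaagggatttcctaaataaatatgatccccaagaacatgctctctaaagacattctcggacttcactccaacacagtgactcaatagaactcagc
Cxcl10: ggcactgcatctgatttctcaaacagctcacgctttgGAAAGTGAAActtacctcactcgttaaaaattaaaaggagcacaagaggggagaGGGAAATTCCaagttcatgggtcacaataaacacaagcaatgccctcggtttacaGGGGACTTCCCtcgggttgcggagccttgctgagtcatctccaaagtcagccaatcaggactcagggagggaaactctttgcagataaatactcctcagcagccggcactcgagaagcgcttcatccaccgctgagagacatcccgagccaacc
Cx3cl1: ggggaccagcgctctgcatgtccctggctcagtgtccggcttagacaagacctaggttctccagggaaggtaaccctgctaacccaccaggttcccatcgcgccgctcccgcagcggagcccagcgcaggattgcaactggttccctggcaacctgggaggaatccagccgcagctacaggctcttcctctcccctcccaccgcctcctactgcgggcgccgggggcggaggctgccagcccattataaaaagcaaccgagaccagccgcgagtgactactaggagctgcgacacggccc

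The windows of Cxcl1 and Cxcl2 hold the same run, GGGAATTTCCC, which contains 2 overlapping kappaB matches and begins at base -71 of Cxcl1 and base -97 of Cxcl2. The Cxcl10 window holds 3 kappaB matches, of which 2 overlap, and an ISRE core, GAAAGTGAAA, at base -213. The windows of Cxcl9, Cxcl12 and Cx3cl1 hold neither motif. The kappaB consensus was found in 8.46% and the ISRE core in 3.44% of all 32851 windows. The GAS motif TTCNNNGAA, found in 8.30% of windows, occurred among the 7 members only in Cxcl14, whose window also holds an ISRE core. The motif CAGACA, a SMAD binding element found in 21% of windows, occurred among them only in Cxcl2, and the heat shock element pair GAANNTTC, found in 7.86%, in none of them. A TATAAA box, found in 13.6% of windows, occurred in Cxcl9 and Cx3cl1. These matches are descriptions of the letters in each window.

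The libraries held 35087180 to 70421576 estimated counts. Each siRNA pool lowered its target, Hsp90aa1 to 10.1% of control in CAF and 12.4% in NF with TGFb1, and Hsp90ab1 to 9.96% and 13.3%. With siHsp90ab1, Hsp90aa1 was at 47.6% of control in CAF and 48.1% in NF with TGFb1. These differences did not pass edgeR's quasi-likelihood test (adjusted p = 0.123 and 0.0722), though all knockdown libraries lay below all their controls. By the same test, Hsp90aa1 in NF with siHsp90ab1 and TGFb1 was called lower than with vehicle (41.4%, adjusted p = 0.00258). The 9 fibroblast markers summed to between 7785 and 61914 CPM (counts scaled to library size), with Thy1 near 0 in NF. The sum was 7785 to 10510 CPM in NF with vehicle and 17170 to 23022 CPM in NF with siCtr and TGFb1. It was 40086 to 48843 CPM in CAF with siCtr and 55645 to 61914 CPM in CAF with siHsp90aa1. In CAF over NF with vehicle, 7 of the 9 were called higher and 1 lower, where 31.6% and 30.0% of all genes were. The 7 immune markers summed to 2.58 to 8.55 CPM in every group, with Ptprc, Cd3e, Lyz2 and Adgre1 at or near 0. Of the 7, 2 were tested, and neither was called between CAF and NF or for TGFb1 in NF. With siHsp90aa1 in NF with TGFb1, 1 was called lower, where 13.5% of all genes were. Against vehicle in NF, 1 was lower with siHsp90aa1 and TGFb1, where 30.1% of all genes were called in either direction. With siHsp90ab1 and TGFb1, 1 was higher than with vehicle, where 19.7% of all genes were. The 7 epithelial markers summed to 5.02 to 22.2 CPM in CAF, nearly all of it Krt19, and to 0.400 to 1.62 CPM in NF, with Epcam and Cdh1 near 0 in both lines. The 6 endothelial markers summed to 3.85 to 14.9 CPM in CAF, led by Kdr, and to 0.553 to 2.74 CPM in NF. The 4 pericyte markers, nearly all Mcam and with the others near 0, summed to 2.83 to 5.91 CPM in CAF. In NF they summed to 2.03 to 2.94 CPM with siHsp90aa1 and TGFb1, 3.42 to 3.84 CPM with siHsp90ab1 and TGFb1, 3.06 to 4.74 CPM with siCtr and TGFb1, and 1.01 to 1.11 CPM with vehicle. Mcam was called higher in CAF than in NF (log2 fold change 2.86 ± 0.33) and with TGFb1 in NF (2.48 ± 0.33), and lower with siHsp90aa1 in NF with TGFb1 (-0.87 ± 0.31). The part of these markers in the results was not tested. In bulk RNA, fewer cells making a transcript and less transcript per cell cannot be told apart.

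The makeup of the chemokine transcripts differed between the lines. On the TPM scale, in which each library sums to the same total after correction for transcript length, the 10 genes summed to 232 ± 52.7 TPM in CAF with siCtr and to 1686 ± 410 TPM in NF with siCtr and vehicle (SD, n = 3 each). In CAF with siCtr the homeostatic genes made up 92.3% of that sum (89.9 to 93.9% over libraries), against 10.1% (9.68 to 10.4%) in NF with vehicle. The homeostatic sums themselves overlapped, at 154 to 253 TPM in CAF with siCtr and 140 to 224 TPM in NF with vehicle. In the same groups the interferon-driven genes summed to 2.90 ± 0.829 and 925 ± 163 TPM, and the neutrophil genes to 14.3 ± 0.960 and 589 ± 207 TPM. Cxcl14 led in CAF with siCtr at 96.9 ± 41.0 TPM, followed by Cxcl12 at 56.0 ± 3.73 and Cx3cl1 at 53.3 ± 14.9 TPM, whose levels overlapped. Cxcl10 led in NF with vehicle at 903 ± 160 TPM, followed by Cxcl5 at 412 ± 201 and Cxcl1 at 177 ± 46.2 TPM. Cxcl10 stayed first in the 3 NF groups with TGFb1, where it made up 72.7% of the summed TPM with siHsp90aa1, 39.9% with siHsp90ab1 and 64.9% with siCtr.

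**Figure D1:**
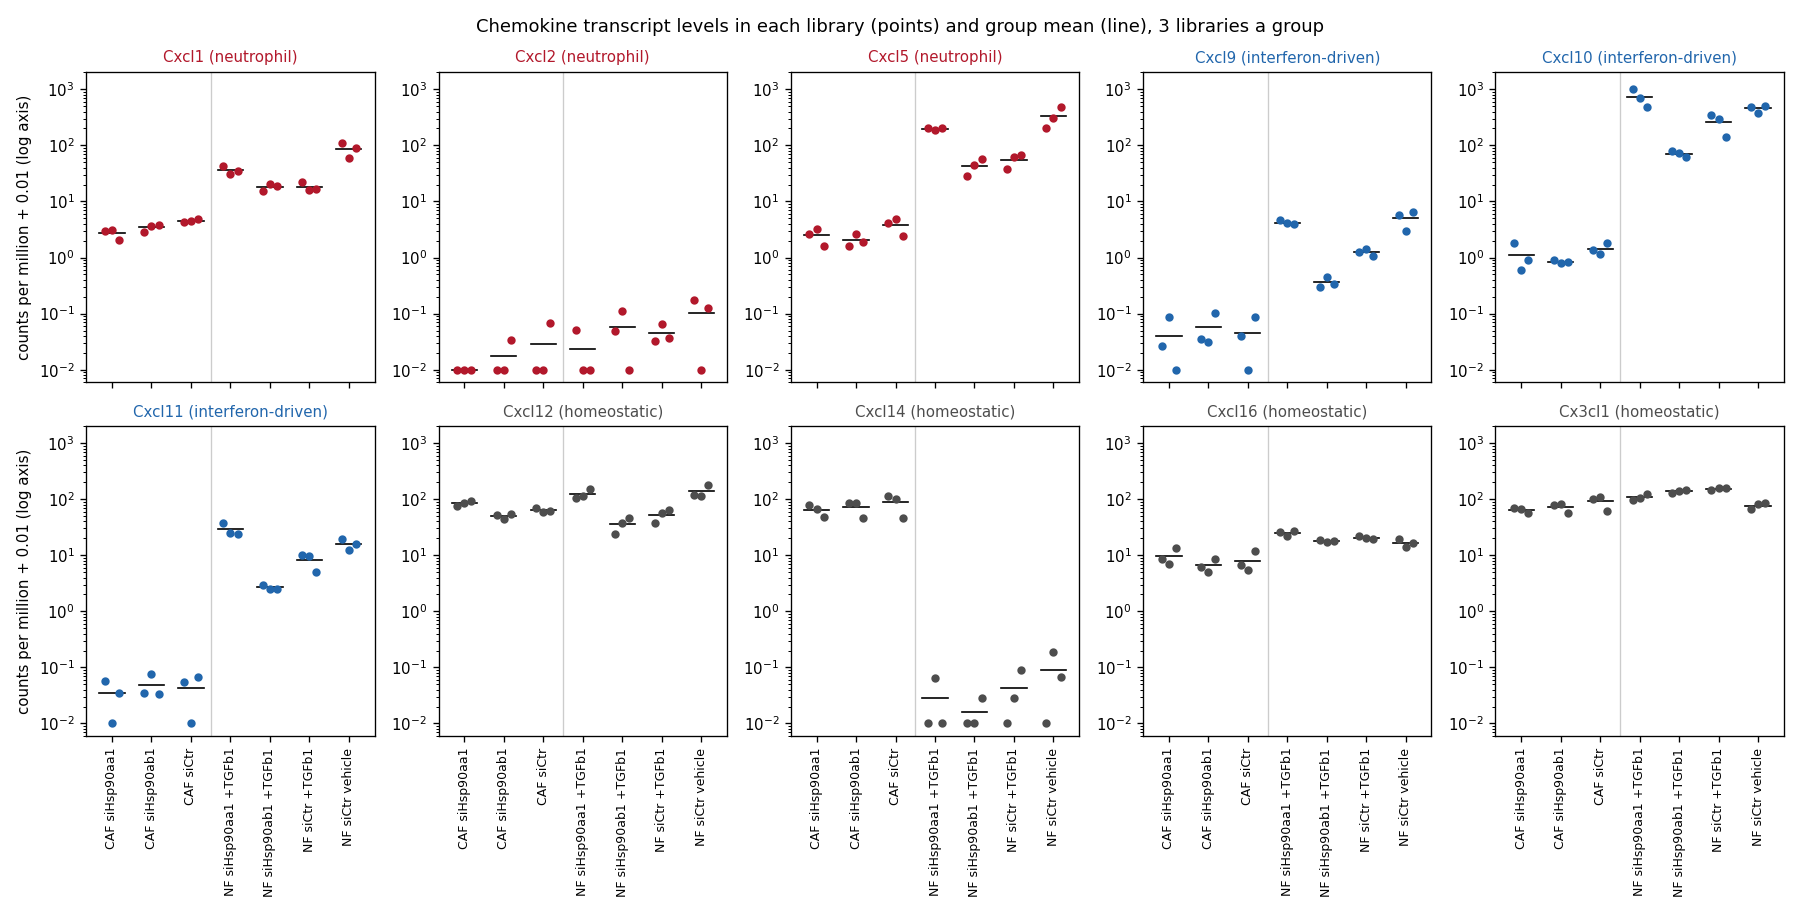
CPM plus 0.01 (log axis) of the 10 chemokine genes in each library (points) and the group mean (line), 3 libraries a group, CAF left of the grey line and NF right of it. Cxcl1, Cxcl5, Cxcl9, Cxcl10 and Cxcl11 sit far lower in CAF than in NF, Cxcl2 is at or near 0 in both, Cxcl14 sits far higher in CAF, and Cxcl12, Cxcl16 and Cx3cl1 within the same order of magnitude.

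The plot of levels by library shows a similar arrangement of groups for 5 genes. Cxcl1, Cxcl5, Cxcl9, Cxcl10 and Cxcl11 were high in NF with vehicle and NF with siHsp90aa1 and TGFb1, lower in the other NF groups, and lowest in the 3 CAF groups.

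**Figure D2:**
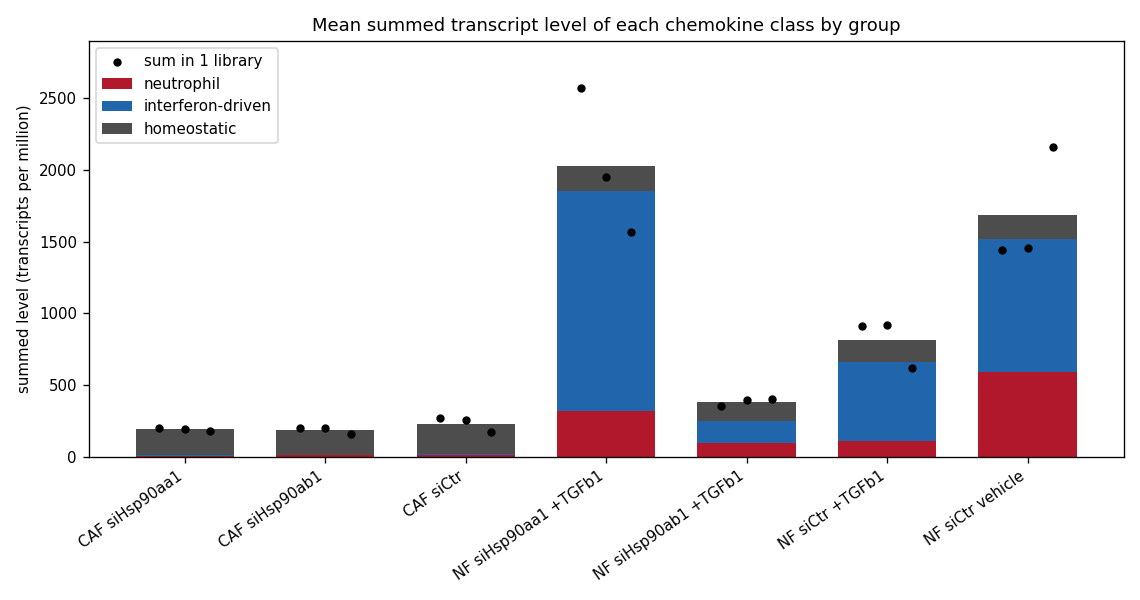
Mean summed level of each chemokine class in TPM (stacked bars, starting at 0) for the 7 groups, with the sum of all 10 genes in each library as points. The sum averages 2028 TPM in NF with siHsp90aa1 and TGFb1, 383 TPM with siHsp90ab1 and TGFb1, 814 TPM with siCtr and TGFb1 and 1686 TPM with siCtr and vehicle, and 186 to 232 TPM in the CAF groups.

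As the plot of class sums shows, the NF sum lay above the siCtr control with TGFb1 for siHsp90aa1 and below it for siHsp90ab1, without overlap between libraries. With TGFb1, the interferon-driven genes summed to 1533 ± 527 TPM with siHsp90aa1, 155 ± 13.4 TPM with siHsp90ab1 and 551 ± 195 TPM with siCtr (SD, n = 3 each). The neutrophil genes summed to 321 ± 14.6, 97.4 ± 22.9 and 110 ± 15.8 TPM in the same groups, and the homeostatic genes to 173 ± 29.8, 131 ± 13.6 and 153 ± 16.5 TPM. The ranges of siHsp90aa1 and siCtr libraries did not overlap for the neutrophil and interferon-driven sums, and overlapped for the homeostatic sum.

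Differences were tested gene by gene with edgeR's quasi-likelihood test on all 15230 tested genes, with Benjamini-Hochberg adjustment, and called at an adjusted p under 0.05. Between CAF and NF, both with siCtr and vehicle, 1 of the 9 tested members was called higher and 7 lower, where 31.6% and 30.0% of all tested genes were. For TGFb1 against vehicle in NF, 1 rose and 6 fell, where 14.6% and 14.4% of all genes did. For siHsp90aa1 against siCtr in NF with TGFb1, 6 rose and 1 fell, against 14.8% and 13.5% of all genes. For siHsp90ab1 against siCtr in NF with TGFb1, 3 fell, against 1.62% of all genes. For siHsp90aa1 against siCtr in CAF, 2 fell, against 12.9% of all genes. For siHsp90ab1 against siCtr in CAF, where 0.900% of all genes were called in either direction, edgeR called 0 of 9 members. There 1 member, Cxcl5, had an unadjusted p under 0.05, and DESeq2 called 0. Every member called in these comparisons moved in the called direction within each of the 3 replicate numbers, which the labels give as batches. The comparisons share libraries: both NF knockdowns use the siCtr libraries with TGFb1, which are also set against vehicle, and the vehicle libraries also serve CAF against NF. These counts cover the members that passed the filter on low counts. Cxcl14 in NF and Cxcl9 and Cxcl11 in CAF passed it only through the other line and averaged under 1 CPM, so they were left out of the medians within those lines. The median log2 fold change was -4.23 over all 9 for CAF against NF, -1.15 for TGFb1, 1.35 for siHsp90aa1 and -0.47 for siHsp90ab1 over 8 members in NF, and -0.45 and -0.34 for these knockdowns over 7 members in CAF. The median over all tested genes lay between -0.03 and 0.03 in each of these comparisons.

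**Figure D3:**
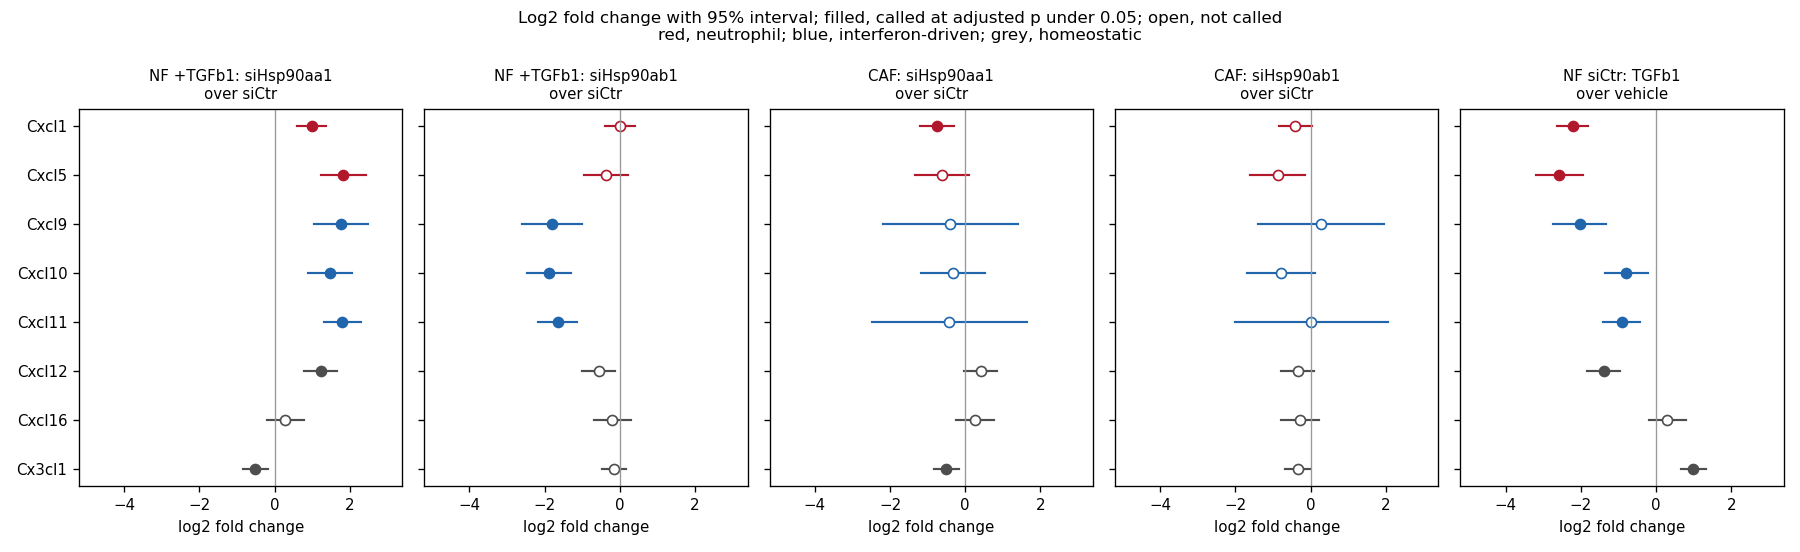
Log2 fold change of 8 chemokine genes (rows) with its 95% interval for the knockdowns in NF with TGFb1 and in CAF and for TGFb1 against vehicle in NF; filled points were called at an adjusted p under 0.05 by edgeR's quasi-likelihood test. With siHsp90aa1 in NF 6 genes are called right of 0 and Cx3cl1 left of it, and with siHsp90ab1 in NF the 3 interferon-driven genes are called left of 0.

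Cxcl1, the neutrophil chemokine of the KC type, was scarce in CAF. It had 4.22, 4.53 and 4.91 CPM in CAF with siCtr, against 108, 58.8 and 88.4 CPM in NF with vehicle, and the ranges lay far apart. The CAF level was 5.34% of the NF level (log2 fold change -4.23 ± 0.23 SE, adjusted p = 2.91e-11). TGFb1 lowered it in NF, to 22.1, 16.2 and 16.5 CPM with TGFb1, against the same vehicle libraries (log2 fold change -2.22 ± 0.21, adjusted p = 3.12e-07), and the log2 difference was -2.29, -1.86 and -2.42 within the replicate numbers. NF with siHsp90aa1 and TGFb1 had 43.1, 30.7 and 34.9 CPM, all above the siCtr libraries with TGFb1 and all below those with vehicle. That was a rise of 1.98-fold over siCtr with TGFb1 (log2 fold change 0.99 ± 0.20, adjusted p = 0.0016). NF with siHsp90ab1 and TGFb1 had 15.1, 20.6 and 19.1 CPM, which overlapped siCtr with TGFb1, with a 95% interval of the log2 fold change of -0.40 to 0.39.

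In CAF, Cxcl1 moved the other way with siHsp90aa1. It had 2.95, 3.12 and 2.01 CPM with siHsp90aa1, against 4.22, 4.53 and 4.91 CPM with siCtr, without overlap (log2 fold change -0.75 ± 0.23, adjusted p = 0.023). This call was lost without siHsp90aa1 replicate 3 (adjusted p = 0.107), siCtr replicate 2 (0.0514) or siCtr replicate 3 (0.052). With siHsp90ab1 in CAF it had 2.80, 3.66 and 3.83 CPM, all under the siCtr libraries, a difference that did not pass the test (log2 fold change -0.40 ± 0.23, adjusted p = 0.682).

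Cxcl5, a neutrophil chemokine made by epithelial cells and fibroblasts, was called in the same directions as Cxcl1 in 3 comparisons. These were CAF against NF, TGFb1 against vehicle in NF, and siHsp90aa1 against siCtr in NF with TGFb1. It had 4.19, 4.79 and 2.44 CPM in CAF with siCtr, against 204, 308 and 479 CPM in NF with vehicle, so the CAF level was 1.14% of the NF level (log2 fold change -6.45 ± 0.39, adjusted p = 1.04e-10). With TGFb1 in NF it fell to 38.4, 62.9 and 66.0 CPM, 16.9% of vehicle (log2 fold change -2.57 ± 0.32, adjusted p = 7.94e-06). Under siHsp90aa1 and TGFb1 it had 200, 192 and 203 CPM, 3.55-fold over siCtr with TGFb1 (log2 fold change 1.83 ± 0.31, adjusted p = 0.00032). These 3 libraries lay above all siCtr libraries with TGFb1 and below all those with vehicle. Under siHsp90ab1 and TGFb1 it had 28.8, 44.8 and 56.0 CPM, overlapping siCtr with TGFb1 (log2 fold change -0.37 ± 0.30, adjusted p = 0.712).

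In CAF the Cxcl5 libraries of the knockdown and control groups overlapped. It had 2.57, 3.27 and 1.58 CPM with siHsp90aa1 and 1.61, 2.61 and 1.89 CPM with siHsp90ab1, against 4.19, 4.79 and 2.44 CPM with siCtr. The log2 fold changes were -0.61 ± 0.37 (adjusted p = 0.247) and -0.88 ± 0.38 (adjusted p = 0.489).

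Cxcl2, a close relative of Cxcl1, was at or near 0 throughout. It had 0 to 10 counts in a library, with 0.165, 0 and 0.114 CPM in NF with vehicle as its highest group and 0 counts in all 3 CAF libraries with siHsp90aa1. Its groups overlapped and it was not tested in the filtered table. In NF with vehicle Cxcl1 averaged 177 TPM and Cxcl2 0.169 TPM, while both promoter windows hold the kappaB run shown above. Reads shared with Cxcl3 leave the few counts of Cxcl2 uncertain.

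Cxcl10, which recruits Cxcr3-bearing T cells, was the most abundant of the 10 transcripts in every NF group and nearly absent from CAF. It had 1.34, 1.12 and 1.78 CPM in CAF with siCtr, against 484, 381 and 501 CPM in NF with vehicle. The pooled ratio of NF to CAF was 345 (95% interval 302 to 395, counting error only), and edgeR gave a log2 fold change of -8.31 ± 0.42 for CAF over NF (adjusted p = 1.03e-11). With TGFb1 in NF it had 346, 299 and 143 CPM, all below the vehicle libraries (log2 fold change -0.79 ± 0.29, adjusted p = 0.04999), with log2 differences of -0.48, -0.35 and -1.81 within the replicate numbers. This last call was at the threshold. It was lost without TGFb1 replicate 2 or 3 (adjusted p = 0.0633 and 0.206), without vehicle replicate 1 or 3 (0.102 and 0.115) and in a fit of these 2 groups alone (0.0945). Without TGFb1 replicate 3 the log2 fold change was -0.51.

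The knockdowns moved Cxcl10 in opposite directions in NF. With siHsp90aa1 and TGFb1 it had 1023, 688 and 484 CPM, all above siCtr with TGFb1, a rise of 2.78-fold (log2 fold change 1.48 ± 0.30, adjusted p = 0.00133). Replicate 1 was the highest and replicate 3 the lowest in both groups, and within the replicate numbers the log2 difference was 1.56, 1.20 and 1.76. NF with siHsp90ab1 and TGFb1 had 78.1, 72.4 and 62.1 CPM, all below siCtr with TGFb1, and it fell to 26.9% of that control (log2 fold change -1.89 ± 0.30, adjusted p = 0.00164). In CAF the libraries had 1.78, 0.583 and 0.878 CPM with siHsp90aa1 and 0.882, 0.784 and 0.817 CPM with siHsp90ab1, against 1.34, 1.12 and 1.78 CPM with siCtr. The siHsp90ab1 libraries lay wholly below siCtr and the siHsp90aa1 libraries overlapped it, and neither passed the test (adjusted p = 0.712 and 0.639).

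Cxcl11, the Cxcr3 ligand of highest affinity in the human system, moved like Cxcl10 at a lower level. It had 0.0441, 0 and 0.0573 CPM in CAF with siCtr, which is 6 counts in all, against 19.3, 12.2 and 15.8 CPM in NF with vehicle. The pooled ratio of NF to CAF was 449, with a counting interval of 206 to 1225. With TGFb1 in NF it fell to 10.2, 9.77 and 5.05 CPM (log2 fold change -0.92 ± 0.25, adjusted p = 0.0102), a call lost without TGFb1 replicate 3 (0.0524). Under siHsp90aa1 and TGFb1 it had 38.1, 25.2 and 24.3 CPM, 3.49-fold over siCtr with TGFb1 (log2 fold change 1.80 ± 0.26, adjusted p = 7.72e-05). These libraries exceeded all 3 vehicle libraries as well. Under siHsp90ab1 and TGFb1 it fell to 2.91, 2.53 and 2.53 CPM, 31.8% of siCtr with TGFb1 (log2 fold change -1.65 ± 0.27, adjusted p = 0.0018).

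Cxcl9, the ligand most closely tied to interferon-gamma, was the least abundant of the 3 in each NF group on the TPM scale. It had 0.0294, 0 and 0.0764 CPM in CAF with siCtr, again 6 counts in all, against 5.83, 2.92 and 6.43 CPM in NF with vehicle, a pooled ratio of NF to CAF of 145 (66.2 to 396). With TGFb1 in NF it fell to 1.27, 1.38 and 1.05 CPM, 24.4% of vehicle (log2 fold change -2.03 ± 0.36, adjusted p = 0.000369). It had 4.61, 4.10 and 3.89 CPM with siHsp90aa1 and TGFb1, 3.39-fold over siCtr with TGFb1 (log2 fold change 1.76 ± 0.36, adjusted p = 0.00164) and within the range of the vehicle libraries. It fell to 0.291, 0.434 and 0.333 CPM with siHsp90ab1 and TGFb1 (log2 fold change -1.81 ± 0.41, adjusted p = 0.0199).

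The groups of that last comparison did not overlap, yet the call for Cxcl9 was lost without any of 5 libraries. The adjusted p was 0.119, 0.0557 and 0.0727 without siHsp90ab1 replicate 1, 2 or 3, and 0.0714 and 0.087 without siCtr replicate 1 or 2. The log2 fold change stayed between -1.97 and -1.69. In CAF, Cxcl9 and Cxcl11 stayed at or under 0.0934 CPM in all 9 libraries, so no knockdown effect on them was measurable there at this depth.

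Cxcl14 was the member that was higher in CAF than in NF. This chemokine of skin and mucosal stroma, whose receptor is unsettled, had 115, 102 and 45.4 CPM in CAF with siCtr, against 0, 0.180 and 0.0572 CPM in NF with vehicle. These are 13698 counts against 11, a pooled ratio of CAF to NF of 1174 with a counting interval of 656 to 2352 (log2 fold change 10.22 ± 0.57, adjusted p = 3.59e-11). It stayed at or under 0.0785 CPM in the 9 NF libraries with TGFb1. In CAF it had 77.4, 66.6 and 47.4 CPM with siHsp90aa1 and 84.4, 85.7 and 46.6 CPM with siHsp90ab1, which overlapped siCtr (adjusted p = 0.314 and 0.928). Replicate 3 was the lowest library in each of these 3 CAF groups. Without siCtr replicate 3 the siHsp90aa1 difference passed the test (log2 fold change -0.77, adjusted p = 0.0411).

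Cxcl12, the Cxcr4 ligand, was present in every group, and in NF it fell with TGFb1 and rose with siHsp90aa1. It had 68.6, 59.1 and 62.7 CPM in CAF with siCtr, against 118, 114 and 180 CPM in NF with vehicle (log2 fold change -1.11 ± 0.22, adjusted p = 0.00032). With TGFb1 in NF it fell to 37.7, 56.2 and 63.3 CPM, 38.1% of vehicle (log2 fold change -1.39 ± 0.23, adjusted p = 0.00015). With siHsp90aa1 and TGFb1 it had 105, 113 and 152 CPM, 2.35-fold over siCtr with TGFb1 (log2 fold change 1.23 ± 0.23, adjusted p = 0.000651) and overlapping vehicle. With siHsp90ab1 and TGFb1 it had 23.8, 37.0 and 45.3 CPM, overlapping siCtr with TGFb1 (log2 fold change -0.57 ± 0.23, adjusted p = 0.257). The log2 difference was -0.67, -0.60 and -0.48 within the replicate numbers, and with the replicate number as a block the adjusted p was 0.0471.

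In CAF, Cxcl12 had 75.7, 84.7 and 93.9 CPM with siHsp90aa1 and 51.9, 44.9 and 53.8 CPM with siHsp90ab1, against 68.6, 59.1 and 62.7 CPM with siCtr. The first lay wholly above and the second wholly below the control libraries, but neither passed the test against it (log2 fold change 0.42 ± 0.22, adjusted p = 0.188, and -0.34 ± 0.22, adjusted p = 0.769). The difference between the knockdowns did pass (log2 fold change 0.76 ± 0.22 for siHsp90aa1 over siHsp90ab1, adjusted p = 0.0191). It was lost without siHsp90aa1 replicate 3 (0.0808), siHsp90ab1 replicate 1 (0.0539) or siHsp90ab1 replicate 2 (0.0872). In a fit of siHsp90aa1 and siCtr alone, their difference had an adjusted p of 0.03.

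Cxcl16, the membrane-anchored Cxcr6 ligand and scavenger receptor, ranged from 4.99 to 27.2 CPM over all 21 libraries. It had 6.57, 5.51 and 12.0 CPM in CAF with siCtr, against 19.7, 14.0 and 16.5 CPM in NF with vehicle, and was lower in CAF (log2 fold change -1.05 ± 0.26, adjusted p = 0.00162). With TGFb1, NF had 25.7, 22.3 and 27.2 CPM with siHsp90aa1, 18.3, 17.2 and 17.9 CPM with siHsp90ab1, and 21.8, 20.6 and 19.3 CPM with siCtr. These 3 groups did not overlap, but neither knockdown passed the test against siCtr (log2 fold change 0.28 ± 0.25, adjusted p = 0.427, and -0.21 ± 0.25, adjusted p = 0.831). TGFb1 itself gave a log2 fold change of 0.30 ± 0.25 over vehicle (adjusted p = 0.415). In CAF it had 8.56, 7.0 and 13.4 CPM with siHsp90aa1 and 6.22, 4.99 and 8.59 CPM with siHsp90ab1, overlapping siCtr, with replicate 3 the highest library of each CAF group. Without siCtr replicate 3 the siHsp90aa1 difference in CAF passed (log2 fold change 0.65, adjusted p = 0.0458).

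Cx3cl1, the membrane-bound fractalkine, was the member that rose with TGFb1. It had 147, 157 and 158 CPM in NF with TGFb1, against 65.7, 80.8 and 84.6 CPM with vehicle, a rise of 2.00-fold without overlap (log2 fold change 1.00 ± 0.17, adjusted p = 0.000215). With siHsp90aa1 and TGFb1 it fell to 96.5, 106 and 121 CPM, against siCtr with TGFb1 (log2 fold change -0.51 ± 0.17, adjusted p = 0.0294). It fell in all 3 replicate numbers, but the call was lost without siHsp90aa1 replicate 1 or 2 (0.12 and 0.0808) or siCtr replicate 1, 2 or 3 (0.0551, 0.0709 and 0.0722). With siHsp90ab1 and TGFb1 it had 130, 140 and 145 CPM, all under siCtr with TGFb1 (log2 fold change -0.15 ± 0.17, adjusted p = 0.806).

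In CAF, Cx3cl1 had 103, 108 and 62.6 CPM with siCtr, overlapping NF with vehicle (log2 fold change 0.24 ± 0.17, adjusted p = 0.222), and without siCtr replicate 3 the difference passed (0.44, adjusted p = 0.013). With siHsp90aa1 in CAF it had 69.7, 65.8 and 57.2 CPM, lower than siCtr by the test though the ranges overlapped (log2 fold change -0.50 ± 0.17, adjusted p = 0.0345). That call was lost without siHsp90aa1 replicate 2 or 3 (0.0697 and 0.131), without siCtr replicate 1 or 2 (0.141 and 0.177) and in a fit of these 2 groups alone (0.112). With siHsp90ab1 in CAF it had 77.7, 81.5 and 56.7 CPM (log2 fold change -0.34 ± 0.17, adjusted p = 0.6).

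Set directly against each other in NF with TGFb1, the knockdowns differed for 6 of 9 members, all higher with siHsp90aa1 than with siHsp90ab1, where 17.7% of all tested genes were. Cxcl9 differed by 11.9-fold (4.20 against 0.353 CPM), Cxcl11 by 11.0-fold (29.2 against 2.66 CPM) and Cxcl10 by 10.3-fold (732 against 70.9 CPM). Cxcl5 differed by 4.59-fold (198 against 43.2 CPM), Cxcl12 by 3.48-fold (123 against 35.4 CPM) and Cxcl1 by 1.98-fold (36.2 against 18.3 CPM). All 6 were higher in each of the 3 replicate numbers, with adjusted p-values of 1.4e-07 to 0.00107 by edgeR's quasi-likelihood test. In CAF, Cxcl12 was the 1 member of 9 called higher with siHsp90aa1 than with siHsp90ab1, where 13.1% of all genes were.

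The 3 NF groups with TGFb1 were also set against NF with siCtr and vehicle, which all 3 comparisons share. Each knockdown group differs from vehicle in both siRNA and TGFb1. No NF knockdown had vehicle, so the parts of siRNA and TGFb1 in these differences cannot be told apart. With siHsp90ab1 and TGFb1, 6 members were lower and 1 higher than with vehicle, where 21.5% and 19.7% of all genes were, and with siHsp90aa1 and TGFb1, 1 was lower and 2 higher, where 30.1% of all genes were called in either direction. With siHsp90aa1 and TGFb1, Cxcl1 was at 42.6% of vehicle (log2 fold change -1.23 ± 0.20, adjusted p = 0.000187), while Cxcl11 was 1.85-fold above vehicle (log2 fold change 0.89 ± 0.25, adjusted p = 0.0113). The call for Cxcl11 was lost without siHsp90aa1 replicate 1 (0.087) or vehicle replicate 2 (0.0591). Cx3cl1 was 1.40-fold above vehicle (adjusted p = 0.0353), a call lost without siHsp90aa1 replicate 2 or 3 (0.0779 and 0.162) or vehicle replicate 1 or 2 (0.145 and 0.0634). With the replicate number as a block, 6 members were called, with Cxcl5 lower (log2 fold change -0.68, adjusted p = 0.0473) and Cxcl10 (0.62, 0.047) and Cxcl16 (0.58, 0.0232) higher in addition. The 30.1% above is from the fit without the block, and the share with it is not given here. Cxcl9 and Cxcl12 did not pass, with 95% intervals of the log2 fold change of -0.94 to 0.40 and -0.59 to 0.28.

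**Figure D4:**
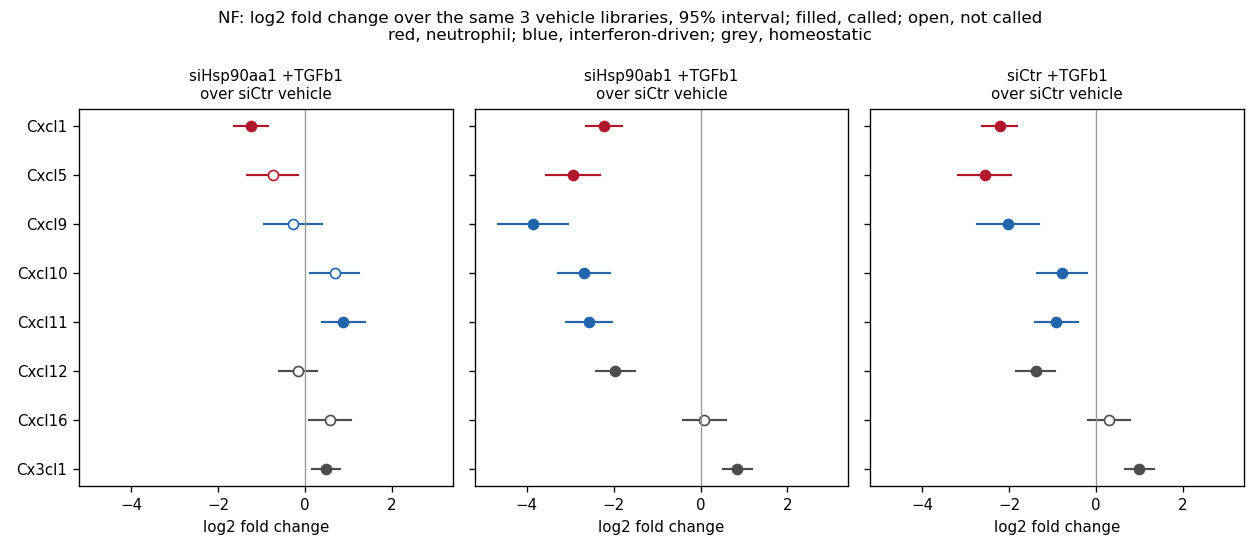
Log2 fold change of 8 chemokine genes (rows) with its 95% interval in NF for siHsp90aa1, siHsp90ab1 and siCtr with TGFb1, each over the same 3 vehicle libraries; filled points were called by edgeR's quasi-likelihood test. With siHsp90aa1 Cxcl1 is called left of 0 and Cxcl11 and Cx3cl1 right of it, while with siHsp90ab1 and with siCtr 6 genes are called left of 0 and Cx3cl1 right of it. The knockdown groups differ from vehicle in both siRNA and TGFb1.

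The plot against vehicle sets these values beside those with siCtr and TGFb1, where the log2 fold change over vehicle was -2.22 for Cxcl1, -2.57 for Cxcl5 and -0.79 for Cxcl10. With siHsp90ab1 and TGFb1 the values were -2.22, -2.94 and -2.68. With siHsp90aa1 and TGFb1 they were -1.23, -0.74 and 0.69.

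The siHsp90aa1 effect itself differed between CAF and NF with TGFb1 for 2 of 9 members, both with a lower value in CAF, where 3.02% of all genes were called lower. For Cxcl1 the log2 fold change was -0.75 in CAF and 0.99 in NF with TGFb1, a difference of -1.73 ± 0.31 (adjusted p = 0.00355, edgeR interaction term). For Cxcl5 it was -0.61 in CAF and 1.83 in NF with TGFb1, a difference of -2.44 ± 0.48 (adjusted p = 0.00639). For Cxcl10 the difference was -1.80 ± 0.52 with an adjusted p of 0.0519. It passed with median-of-ratios size factors (0.0484), without the filter on low counts (0.0236), with DESeq2 (0.00233) and with the replicate number as a block (0.0155). It did not pass in a fit of the 4 groups alone. Of 12 fits that each left out 1 library, it passed in 3, with adjusted p-values of 0.0191 to 0.124 over the 12. The 3 were those without CAF siHsp90aa1 replicate 1 (0.0191), NF siHsp90aa1 replicate 3 (0.0224) or NF siCtr replicate 1 with TGFb1 (0.0367). With the block, Cxcl12 passed too (-0.84, adjusted p = 0.0241), so 4 members were called. All genes called numbered 1871 with the block and 832 without it. Line and TGFb1 cannot be told apart in these differences. For the siHsp90ab1 effect, where 0.00657% of all genes were called, edgeR called 0 of 9 members, with 0 at an unadjusted p under 0.05 and 0 by DESeq2. The 9 members of both counts include Cxcl9 and Cxcl11, near 0 in CAF, and Cxcl14, near 0 in NF. A difference between lines in the effect on these genes was not measurable at this depth.

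Among genes of the interferon pathway, Stat2 and Irf7 were called in the same direction as the interferon-driven chemokines under each knockdown in NF. Of 15 tested receptor, kinase, STAT, IRF and Socs genes and Ifnb1, 8 rose with siHsp90aa1 in NF with TGFb1, where 14.8% of all genes did, with a median log2 fold change over the 15 of 0.40. The 4 with the smallest p were Tyk2, a kinase of the interferon receptors (0.48 ± 0.08), Irf7, the factor that amplifies type I interferon (1.38 ± 0.27), Socs1, a feedback inhibitor (1.24 ± 0.24), and Ifnb1, which encodes interferon-beta (2.38 ± 0.45). Ifnb1 had 1.07, 0.983 and 0.381 CPM with siHsp90aa1 and TGFb1, against 0.0888, 0.236 and 0.131 CPM with siCtr and TGFb1. It was listed at 0 in all 9 CAF libraries. With siHsp90ab1 and TGFb1, 2 of the 15 fell, where 1.62% of all genes did. They were Stat2 (-1.07 ± 0.19) and Irf7 (-1.31 ± 0.27). The call for Irf7 was lost without siHsp90ab1 replicate 1 or 2 (adjusted p = 0.077 and 0.0713) or siCtr replicate 2 (0.0609).

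**Figure D5:**
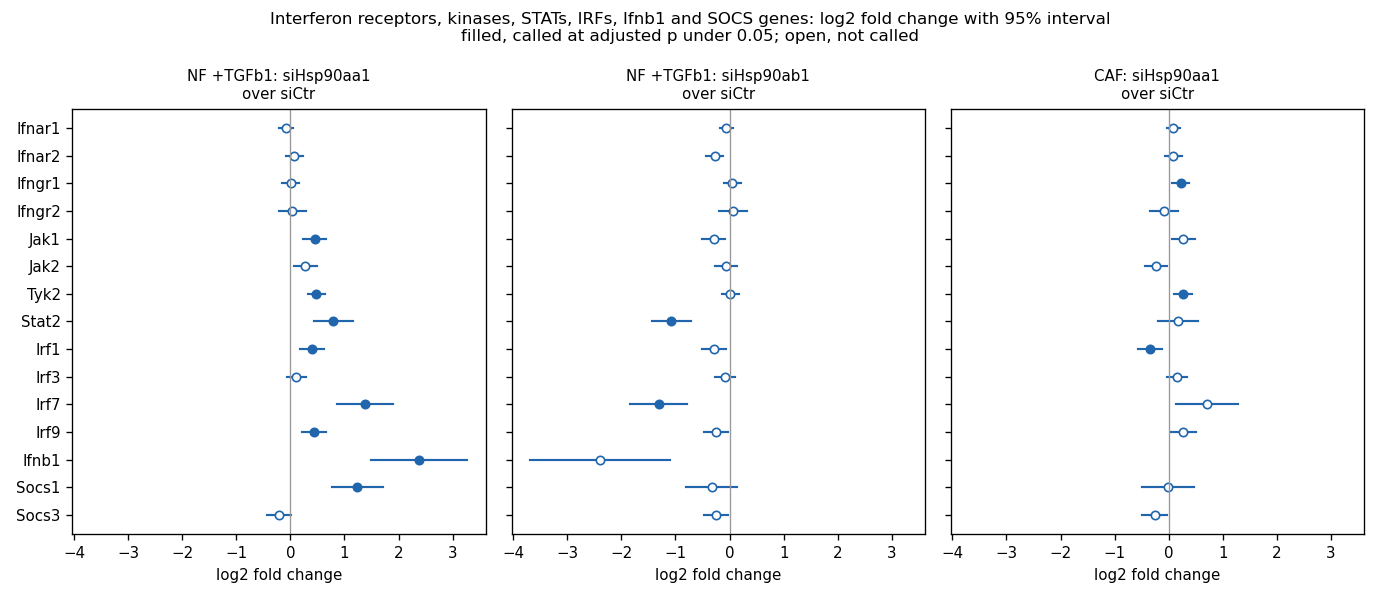
Log2 fold change with 95% interval of 15 interferon pathway genes (rows) for siHsp90aa1 and siHsp90ab1 in NF with TGFb1 and for siHsp90aa1 in CAF, each over siCtr; filled points were called by edgeR's quasi-likelihood test. With siHsp90aa1 in NF 8 genes are called right of 0, and Stat2 and Irf7 are called left of 0 with siHsp90ab1. Ifnb1 is not drawn for CAF, where it is listed at 0.

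Irf7, which moved both ways in the plot of interferon pathway genes, had 264, 203 and 191 CPM with siHsp90aa1, 31.2, 31.3 and 39.7 CPM with siHsp90ab1 and 86.2, 95.5 and 71.5 CPM with siCtr, all with TGFb1 and without overlap. Between CAF and NF, both with siCtr and vehicle, 9 of the 15 were lower in CAF and 2 higher, where 30.0% and 31.6% of all genes were, led by Irf9 (-2.56 ± 0.12), Irf7 (-5.03 ± 0.32), Stat2 (-2.38 ± 0.19) and Jak2 (-1.32 ± 0.11). For TGFb1 in NF, 6 of the 15 fell, where 14.4% of all genes did, led by Jak1 (-0.49 ± 0.11), Ifnb1 (-2.26 ± 0.45), Ifnar2 (-0.30 ± 0.08) and Irf7 (-0.96 ± 0.27). The TGFb1 call for Irf7 was lost without TGFb1 replicate 3 (adjusted p = 0.0527). In CAF with siHsp90aa1, 3 of the 15 passed, Tyk2 (0.26 ± 0.08) and Ifngr1 (0.22 ± 0.08) higher and Irf1 (-0.35 ± 0.11) lower, where 12.5% of all genes were higher and 12.9% lower. These 3 calls were fragile. The call for Ifngr1 was lost without any 1 of the 6 libraries (adjusted p = 0.0579 to 0.273). That for Tyk2 was lost without siHsp90aa1 replicate 1 or 3 (0.0771 and 0.0945) or siCtr replicate 1 or 2 (0.129 and 0.0732), and that for Irf1 without siHsp90aa1 replicate 1 or 3 (0.0528 and 0.101) or siCtr replicate 2 (0.0881).

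Genes of the NF-kB pathway were called in both directions with siHsp90aa1 in NF with TGFb1. Of 22 tested subunits, inhibitors, kinases and upstream receptors, 6 rose and 2 fell, where 14.8% and 13.5% of all genes did, with a median log2 fold change of 0.06. Il1r1, the interleukin-1 receptor, rose by 1.08 ± 0.08, the TNF receptor gene Tnfrsf1a by 0.41 ± 0.07 and Tlr4 by 0.67 ± 0.15, while Nfkb1, a subunit gene, fell by 0.39 on the log2 scale. With siHsp90ab1 in NF, Il1r1 was the 1 gene of the list called, and it fell (-0.33 ± 0.08), where 1.62% of all genes did. The call was lost without any 1 of the 6 libraries (adjusted p = 0.053 to 0.153). It was also lost in a fit of these 2 groups alone (0.0585) and without the filter on low counts (0.0716). Il1r1 had 96.6, 87.8 and 81.6 CPM with siHsp90aa1, 32.9, 32 and 34.8 CPM with siHsp90ab1 and 40.6, 40.3 and 44.8 CPM with siCtr, all with TGFb1, against 97.4, 81.2 and 96.2 CPM with siCtr and vehicle. For TGFb1 in NF, 6 of the 22 fell and 3 rose, where 14.4% and 14.6% of all genes did, led by Il1r1 (-1.13 ± 0.08), Tnfaip3 (1.15 ± 0.18), Tlr4 (-0.92 ± 0.15) and Chuk (0.31 ± 0.06).

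In CAF against NF, both with siCtr and vehicle, 13 of the 22 NF-kB genes were lower and 2 higher, where 30.0% and 31.6% of all genes were, led by Nfkbie (-2.65 ± 0.16), Nfkb2 (-1.17 ± 0.09), Ikbkb (-0.75 ± 0.06) and Nfkb1 (-1.05 ± 0.09). Il1r1 was among the 2 that were higher in CAF (0.59). In CAF with siHsp90aa1, 4 of the 22 rose, where 12.5% of all genes did, the kinase genes Ikbkb (0.37 ± 0.06) and Chuk (0.29 ± 0.06) with Tnip1 (0.51 ± 0.12) and Tlr4 (0.64 ± 0.15). In CAF with siHsp90ab1, 1 of the 22 was called, where 0.900% of all genes were called in either direction. This was Il1r1, which fell (-0.46 ± 0.08), a call lost without siCtr replicate 2 (adjusted p = 0.0557) and in a fit of these 2 groups alone (0.0889).

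Receptors for these ligands were nearly absent. Of 11 receptor and scavenger genes, Cxcr6 and Ackr3 were the 2 that passed the filter. Ackr3 had 4.10, 2.28 and 0.860 CPM in CAF with siCtr, against 18, 14.9 and 14.5 CPM in NF with vehicle (log2 fold change -2.69 ± 0.44, adjusted p = 3.6e-05), and fell with TGFb1 in NF (-1.56 ± 0.42). Cxcr6, the Cxcl16 receptor, had 0.644, 1.11 and 0.863 CPM in NF with TGFb1, against 0, 0.0449 and 0.0191 CPM with vehicle (log2 fold change 5.32 ± 0.77, adjusted p = 4.6e-05). Neither was called with a knockdown in NF or CAF. Of 6 further CXC ligand genes, Ppbp alone was tested, at 0.0502 to 1.13 CPM, and was not called in any of these comparisons.

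Of the 7 tested genes of proteases that release or trim these chemokines, 5 were higher and 1 lower in CAF than in NF, where 31.6% and 30.0% of all genes were, led by Ctsk (6.91 ± 0.25) and Mmp2 (4.07 ± 0.23). With siHsp90aa1 in NF with TGFb1, the sheddase genes Adam17 (0.38 ± 0.07) and Adam10 (0.27 ± 0.06) rose, and in CAF Mmp14 (0.54 ± 0.10) and Adam17 (0.31 ± 0.07) rose. For TGFb1 in NF, Mmp2 (1.68 ± 0.21) and Mmp14 (0.43 ± 0.10) rose and Adam17 (-0.42 ± 0.07) fell. Of 8 genes for factors that act on the stability of chemokine mRNA, 2 rose and 3 fell with siHsp90aa1 in NF, where 14.8% and 13.5% of all genes did, with Auh (0.94 ± 0.10) and Zfp36l1 (1.26 ± 0.15) higher and Elavl1 (-0.32 ± 0.09) and Khsrp (-0.26 ± 0.07) lower. The call for Khsrp was lost without siHsp90aa1 replicate 1 (adjusted p = 0.0639). Auh (-1.05 ± 0.10) and Zfp36l1 (-1.26 ± 0.15) fell with TGFb1 in NF. With siHsp90aa1 in CAF, 2 of the 8 rose and 3 fell, where 12.5% and 12.9% of all genes did. The calls there for Khsrp and Hnrnpd, both lower, were lost in several fits that left out 1 library. In CAF against NF, 5 of the 8 were lower and 1 higher, where 30.0% and 31.6% of all genes were. Zc3h12a, which encodes the RNase regnase-1, was among the lower ones (-2.60 ± 0.14).

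The genes most like each member were found by the root mean square difference of centred log2 CPM over the 21 libraries, which share the lines and the treatments. For Cxcl10 they were Gbp5 (0.50), Rsad2 (0.57) and Slfn8 (0.59), for Cxcl11 Gbp5 (0.41), Mx1 (0.47) and Zbp1 (0.53), and for Cxcl9 Tnfsf10 (0.48), Gm5431 (0.53) and Oas3 (0.61). Cxcl10 and Cxcl11 were 0.54 apart, the closest pair of members. The nearest to Cxcl1 were Angpt1 (0.41), Mgst1 (0.47) and Ptgfr (0.48), and to Cxcl5 Gm26794 (0.53), Tshz2 (0.55) and Il1rn (0.55). Cxcl12 was nearest to C1ra (0.25), C1rb (0.31) and Slc10a6 (0.31), and Cxcl14 to Rps4l (0.40), Cthrc1 (0.46) and Rpl39l (0.50). Cx3cl1 was nearest to Tagln2 (0.14), Sdc1 (0.17) and Fmnl3 (0.19). Cxcl16 was nearest to Zmynd15 (0.23), which overlaps it on the opposite strand, then to Txndc16 (0.23) and Glis1 (0.27). These are descriptions of likeness, with no test.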

How the data were processed

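Poly(A) RNA was sequenced from 21 libraries, prepared with a stranded TruSeq kit per the labels' protocols. The deposited tables hold estimated counts and TPM per gene. STAR, Salmon and the GRCm38 build are named in the submitters' processing notes, without versions or roles. Of the deposited estimated counts, 10.9% were not whole, and all were rounded before testing. CPM was computed from the rounded counts with TMM scaling. The authors' TPM values, which correct for transcript length, were used only to compare genes and to sum classes, with no test.

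Genes were kept by edgeR's expression filter by group (minimum count 10, minimum total 15), which left 15230 of 45706. edgeR 4.0.16 in R 4.3.3 fitted 1 coefficient for each of 7 groups, with a prior count of 0.125, TMM scaling, the quasi-likelihood test and Benjamini-Hochberg adjustment over all tested genes. The standard error is the size of the log2 fold change divided by the root of F. The procedure was tested on simulated data. Alternatives were median-of-ratios size factors, no filter, DESeq2 1.42.0, the replicate number as a block, the 2 or 4 groups of a comparison alone, and leaving out each library.

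The labels give the replicate number as a batch, so it pairs libraries. The main fit left this pairing out, and the block was an alternative. Same-numbered libraries of different groups deviated together from their group means, with a mean correlation of 0.348 over 63 pairs and 8947 genes. Of the 63, 55 were over 0.1. Other pairs averaged -0.167, but centring on group means forces them below 0 when same-numbered pairs lie above it. That value is therefore no separate evidence of pairing. Nothing in the labels says that replicates were separate isolates, so the p-values here reflect only how far these libraries spread, which may be technical. Libraries held 35087180 to 70421576 counts, and intervals on pooled ratios cover counting error only.

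All 10 members are described. Context genes came from lists of related receptors, ligands, proteases, NF-kB, interferon and mRNA stability genes, naming up to 4 called genes of smallest p per list and comparison, and Il1r1 for CAF against NF and Ppbp were added after their values were seen. An item of the interferon list and one of the immune markers are not reported here. Members and lists were chosen with earlier results of these data known. Likeness used genes with a mean of at least 1 CPM and a prior count of 2. Gene positions come from the GENCODE mouse annotation on GRCm38, and promoter windows from RefSeq on GRCm38.p6. Transcripts overlapping on the opposite strand (Art3, Zmynd15) may share reads, since the strand setting of the counting is not given in the sources used here.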

Additional observations from a re-analysis of the deposited data

Results flagged for a closer look

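The siHsp90aa1 effect on the neutrophil chemokines differed between CAF and NF with TGFb1 by the interaction term in edgeR. For Cxcl1 the difference in log2 fold change, CAF minus NF with TGFb1, was -1.73 ± 0.31 (adjusted p = 0.00355), with all 3 knockdown libraries below control in CAF and all 3 above control in NF. For Cxcl5 it was -2.44 ± 0.48 (adjusted p = 0.00639), with overlapping groups in CAF and all 3 knockdown libraries above control in NF. The CAF levels behind these values were 1.58 to 4.91 CPM, and those in NF with TGFb1 were 16.2 to 203 CPM. Line and TGFb1 cannot be told apart here.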

How the results depend on the processing

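Of the member values under the alternatives, 1229 stayed on their side of the threshold, 22 passed it in addition and 33 lost the call. Of these values 53, for 19 of 108 gene and comparison pairs, took the other sign, and none of them passed the test with or without the alternative. They include Cxcl16 with siHsp90aa1 in CAF (log2 fold change 0.26, and -0.06 without siHsp90aa1 replicate 3) and Cxcl14 with siHsp90aa1 in NF with TGFb1 (-0.40, and 0.92 without siCtr replicate 3). Of 103 calls for context genes, 25 were lost under at least 1 alternative and none changed direction. The cause of these changes was not tested. Genes called for siHsp90ab1 numbered 409 in NF with TGFb1 (709 with DESeq2, 902 with the replicate block) and 137 in CAF (322 with DESeq2, 360 with the replicate block, 5 in a fit of these 2 groups). For the difference of the siHsp90aa1 effect they numbered 832 (1341 with DESeq2, 1871 with the block), and for siHsp90ab1 1 (18 with DESeq2, 3 with the block). With the replicate block, members called were 6 against 3 for siHsp90aa1 and TGFb1 over vehicle, and 4 against 2 for the difference of the siHsp90aa1 effect. For the former, 4582 genes were called without the block, and the count with it is not given here. Cxcl12 with siHsp90ab1 in NF with TGFb1 also passed edgeR's test with the block (adjusted p = 0.0471).

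Leaving out 1 library gave 157 to 329 genes for siHsp90ab1 in NF with TGFb1, 44 to 102 for it in CAF, 453 to 951 for the difference of the siHsp90aa1 effect and 0 to 2 for that of siHsp90ab1. It gave 2460 to 4426 genes for siHsp90aa1 in CAF (3867 with all libraries) and 2478 to 4285 for siHsp90aa1 over siHsp90ab1 in CAF (4006 with all). Members called ranged over 0 to 3 for siHsp90aa1 in CAF, 0 to 1 for siHsp90aa1 over siHsp90ab1 in CAF, 1 to 3 for siHsp90aa1 and TGFb1 over vehicle and 2 to 3 for the difference of the siHsp90aa1 effect. In NF with TGFb1 they ranged over 6 to 7 for siHsp90aa1 and 2 to 3 for siHsp90ab1, and over 5 to 7 for TGFb1 over vehicle and 8 to 9 for CAF over NF. In the fit of the 2 NF knockdown groups alone, Cxcl16 (log2 fold change 0.49, adjusted p = 0.00362) and Cx3cl1 (-0.36, 0.0125) also differed between siHsp90aa1 and siHsp90ab1. Depth limits Cxcl2 in all groups, Cxcl9 and Cxcl11 in CAF and Cxcl14 in NF.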
